A study of Arabidopsis thaliana with 15 samples.

Results

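The KIP-RELATED PROTEIN genes KRP1 to KRP7 encode one of the families of cyclin-dependent kinase (CDK) inhibitors of Arabidopsis thaliana. The 7 genes were taken by their identifiers from a table of transcript levels for 33326 genes. Every one of the 7 passed a filter that required a level of at least 1 TPM in at least 3 libraries, which 21737 genes of the table passed. TPM is a transcript level corrected for length and scaled to the same total in each library, so levels of different genes can be set side by side. The series, whose title names cell division and the cytokinin response as its subject, sampled dissected inflorescence meristems in 15 libraries, 3 for each of 5 genotypes. The genotypes were wild-type Col-0, the lines labelled myb3r1 and myb3r4, the line labelled myb3r1myb3r4 (the double mutant), and the line labelled pMYB3R4::GFP-MYB3R4mNES (the mNES line), in which the MYB3R4 promoter drives a GFP-tagged protein. The labels name neither the alleles nor the background of the transgene, and they leave the term mNES unexplained. Each library was a pool of 36 apices from long-day plants (16 h light, 21 °C days and 17 °C nights) with stems of about 1 cm, from which only fully open flowers had been removed. The labels also give each library a shift experiment, which they leave unexplained and which equals its replicate number. Nothing in the labels states that replicates came from separate plants, so the p-values below measure the spread between these samples, which may be technical.

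KRP proteins bind CDKA;1 in complex with D-type cyclins through a conserved C-terminal region related to that of the animal Kip inhibitors, and they block the kinase. The active kinase phosphorylates RBR1, the plant retinoblastoma protein, which frees E2F factors to switch on genes of DNA replication, so KRPs restrain entry into S phase. KRP proteins are removed by ubiquitin ligases, among them those with the F-box proteins FBL17 and SKP2B and the RING proteins RKP, RHF1A and RHF2A. In the shoot meristem KRP4 is known to ride on chromatin and to be diluted as a cell grows, which couples the size of a cell to its entry into S phase. MYB3R1 and MYB3R4 are transcription factors best known for genes of mitosis, which carry the MSA element (mitosis-specific activator, with the core AACGG).

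MYB3R1 and MYB3R4 were checked first. Transcripts of MYB3R1 (AT4G32730) measured 17.2 to 18.1 TPM in libraries labelled myb3r1 against 13.1 to 13.5 TPM in Col-0, and MYB3R4 (AT5G11510) at 12.7 to 13.4 TPM in those labelled myb3r4 against 10.4 to 12.8 TPM. In the double mutant the pair stood at 14.0 to 15.2 and 16.8 to 17.4 TPM, so neither transcript was lower where the label names its gene, and a level summed over a gene does not test an insertion. MYB3R4 reached 58.9 to 63.5 TPM in the mNES line, where reads of the transgene can count toward it. Replicates of a group correlated with r of 0.985 to 0.988 across genes, and libraries of different groups with r of 0.906 to 0.984; genes are not independent replicates. Among 6 shoot meristem markers, STM stood at 44.2 to 62.0 TPM and WUS at 6.73 to 16.9 TPM in the 15 libraries, but the stem cell marker CLV3 stood at 0 to 0.275 TPM. Transcripts of markers of other organs were also present, given here as sums over several genes. The 9 tapetum and anther markers summed to 542 to 658 TPM in Col-0, 986 to 1160 TPM in the double mutant and 277 to 459 TPM in the mNES line. The sum of 8 male germ line and pollen markers was 178 to 211 TPM in Col-0 and 21.1 to 46.6 TPM in the double mutant, while 6 green tissue markers summed to 10500 to 11200 and 8450 to 9160 TPM. Most of the germ line and pollen sum was the pollen gene VGD1, at 17.5 to 250 TPM in the 15 libraries. Others were far lower, such as GEX2 at 0 to 0.437 TPM. In these bulk samples fewer cells of a type and less RNA per cell cannot be told apart.

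KRP transcripts were of moderate level in Col-0 and one member led the rest. KRP2 (AT3G50630) stood at 59.4, 63.3 and 57.4 TPM in replicates 1, 2 and 3, a level above that of 86.1% of the genes tested. KRP4 (AT2G32710) came next at 21.9, 23.1 and 24.7 TPM. KRP6 (AT3G19150, 17.5 ± 0.932 TPM, SD, n = 3), KRP3 (AT5G48820, 16.2 ± 2.71), KRP7 (AT1G49620, 13.1 ± 2.81) and KRP5 (AT3G24810, 12.0 ± 0.811) followed. KRP1 (AT2G23430) was lowest at 8.03, 8.61 and 7.73 TPM, above 33.4% of the genes tested. KRP2 and KRP4 were each separate from their neighbours in this order, as was KRP1, while KRP6 overlapped with KRP3, KRP3 with KRP7 and KRP7 with KRP5. In the double mutant KRP3 moved up to 24.8 ± 2.85 TPM, where it overlapped with KRP4 at 26.7 ± 0.7 TPM. KRP4 stood beside KRP6 in the mNES line, at 17.8 ± 0.419 and 18.1 ± 1.9 TPM, and their libraries overlapped. KRP2 stayed first and KRP1 last in all 5 groups.

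**Figure D1:**
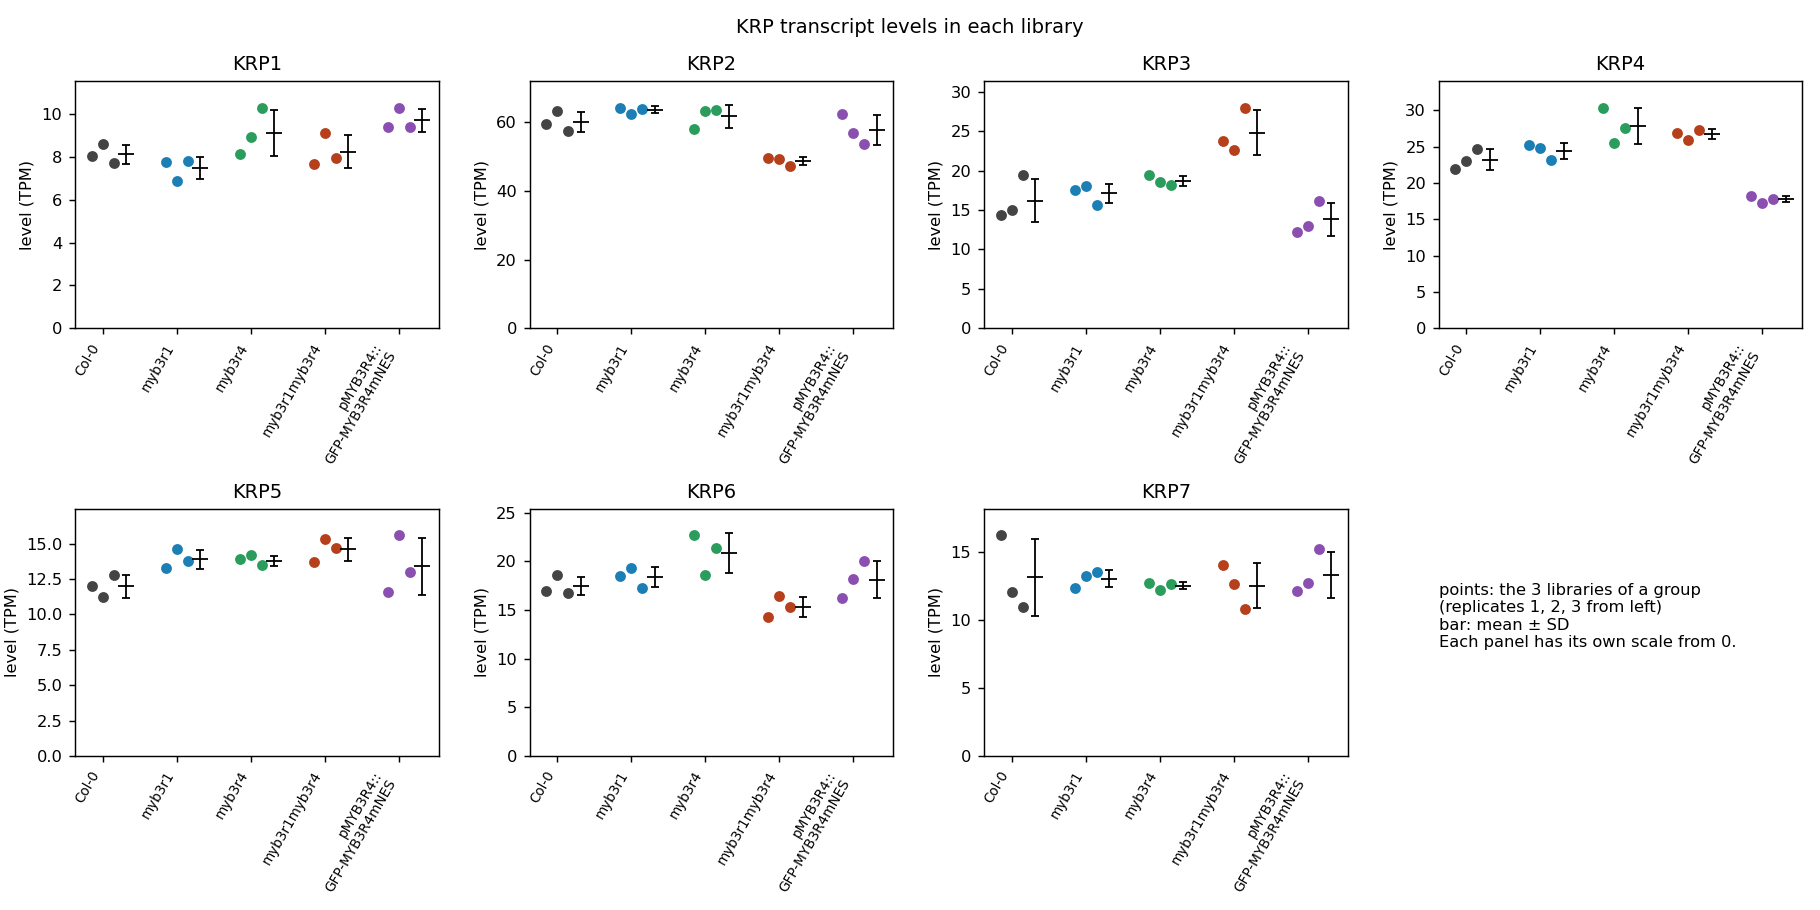
Level of each KRP transcript (TPM, vertical axis, a scale from 0 for each panel) in the 3 libraries of each group (points, replicates 1 to 3 from the left), with the mean ± SD (bars). KRP2 is lowest in the double mutant (47.3 to 49.4 TPM), KRP3 is highest there (22.6 to 28.0 TPM), and KRP4 is lowest in the mNES line (17.3 to 18.2 TPM).

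The genes lie apart from each other in the genome. In the RefSeq annotation of TAIR10.1, KRP1 lies on chromosome 2 from 9976590 to 9978090 (minus strand), KRP2 on chromosome 3 from 18800306 to 18801595 (plus), KRP3 on chromosome 5 from 19792270 to 19794480 (minus) and KRP4 on chromosome 2 from 13873362 to 13876737 (plus). KRP5 lies on chromosome 3 from 9060836 to 9062003 (plus), KRP6 on chromosome 3 from 6616330 to 6617951 (minus) and KRP7 on chromosome 1 from 18365336 to 18366744 (minus). The annotated transcripts have 3 or 4 exons and encode 153 to 289 residues, with KRP4 the longest at 286 to 289. KRP4 alone overlaps another annotated gene, since 926 bases of its 3′ end lie opposite AT2G32720, a cytochrome gene on the other strand. The protocol names no step that marks the strand, so reads of this stretch could belong to either gene.

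Because MYB3R proteins bind the MSA element, the 300 bases upstream of each KRP start were searched for its core AACGG on both strands. Of 27443 protein-coding genes, 23.4% had a core in such a window, 4.53% had 2 or more, 0.958% had 3 or more and 5 genes had 6 or more. KRP1 had 6 cores between 26 and 215 bases from its start, KRP7 had 3, KRP2 had 2, KRP3 and KRP4 had 1 each, and KRP5 and KRP6 had none. None of the 7 windows held an E2F-type site (TTTCCCGC, TTTGGCGC, TTTCGCGC or TTTGCCGC, both strands), which 1.57% of the windows held. A match is a description of the letters and no evidence of binding. Below are the windows of KRP1, which has the most cores, and of KRP2, KRP3 and KRP4, the members with the largest changes against Col-0. They are from RefSeq TAIR10.1, 5′ to 3′ on the strand of the gene, at chr2:9978091-9978390 (minus), chr3:18800006-18800305 (plus), chr5:19794481-19794780 (minus) and chr2:13873062-13873361 (plus), and capitals mark the core on either strand.
KRP1: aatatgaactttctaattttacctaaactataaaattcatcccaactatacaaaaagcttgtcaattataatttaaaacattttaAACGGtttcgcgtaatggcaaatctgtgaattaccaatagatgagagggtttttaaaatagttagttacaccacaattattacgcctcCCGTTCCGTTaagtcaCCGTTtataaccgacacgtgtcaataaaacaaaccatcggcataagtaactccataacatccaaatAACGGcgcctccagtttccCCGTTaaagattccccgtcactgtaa
KRP2: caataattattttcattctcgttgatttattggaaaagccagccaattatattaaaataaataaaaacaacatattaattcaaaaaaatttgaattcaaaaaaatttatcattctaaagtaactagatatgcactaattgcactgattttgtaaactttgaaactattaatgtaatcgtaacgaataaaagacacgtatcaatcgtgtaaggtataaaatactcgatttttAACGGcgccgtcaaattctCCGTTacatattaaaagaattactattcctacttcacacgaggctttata
KRP3: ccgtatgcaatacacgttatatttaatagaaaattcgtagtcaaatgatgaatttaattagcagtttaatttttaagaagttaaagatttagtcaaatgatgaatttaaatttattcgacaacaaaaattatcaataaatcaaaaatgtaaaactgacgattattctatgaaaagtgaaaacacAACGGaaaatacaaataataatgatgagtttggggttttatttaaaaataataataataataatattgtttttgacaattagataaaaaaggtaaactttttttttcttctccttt
KRP4: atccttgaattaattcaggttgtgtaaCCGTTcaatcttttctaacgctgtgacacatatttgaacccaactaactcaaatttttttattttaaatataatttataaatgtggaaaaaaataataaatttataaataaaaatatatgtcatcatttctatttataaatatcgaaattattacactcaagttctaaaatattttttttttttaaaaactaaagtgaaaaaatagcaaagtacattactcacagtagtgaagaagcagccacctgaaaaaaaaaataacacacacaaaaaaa
In the double mutant against Col-0 the log2 changes were 0.02 for KRP1 (6 cores), -0.05 for KRP7 (3) and -0.30 for KRP2 (2). They were 0.60 for KRP3 and 0.20 for KRP4 (1 each), and 0.27 for KRP5 and -0.19 for KRP6 (none). A link between cores and changes was not tested.

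Across the 5 groups, 5 of the 7 KRP genes differed in an F test in limma (KRP4, adjusted p = 1.92e-05; KRP2, 0.000392; KRP3, 0.000737; KRP6, 0.01; KRP1, 0.0253), and 55.9% of all genes tested did so. KRP5 (adjusted p = 0.103) and KRP7 (0.946) did not pass. The double mutant held the most KRP changes, with KRP3, KRP4 and KRP5 higher and KRP2 lower than in Col-0, which is 4 of 7 where 41.6% of all genes were called (24.5% higher and 17.1% lower). In the myb3r4 libraries 1 of 7 was called, KRP4, which was higher, beside 7.59% of all genes (4.55% higher and 3.04% lower). In the mNES line 1 of 7 was called, again KRP4, which was lower there, beside 17.0% of all genes (7.60% higher and 9.39% lower). The split of all genes depended on the scaling. In the double mutant 5321 were higher and 3716 lower as deposited, and 3793 and 4591 with median-of-ratios scaling. In the mNES line the numbers were 1653 and 2042 as deposited, and 2181 and 1500 with that scaling. None of the 7 was called in the myb3r1 libraries by limma, where 6.26% of all genes were (3.16% higher and 3.10% lower), and KRP5 was the 1 member with an unadjusted p under 0.05 (0.0304). The members' median change was 0.07, 0.20, 0.02 and 0.04 on the log2 scale in myb3r1, myb3r4, the double mutant and the mNES line, beside all-gene medians of 0.01, 0.0034, 0.05 and -0.03. These 4 comparisons share the Col-0 libraries. All changes are differences of log2(TPM + 0.5) with limma standard errors (SE), n = 3 per group, and Benjamini-Hochberg adjusted p-values taken over every gene tested, with a threshold of 0.05.

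**Figure D2:**
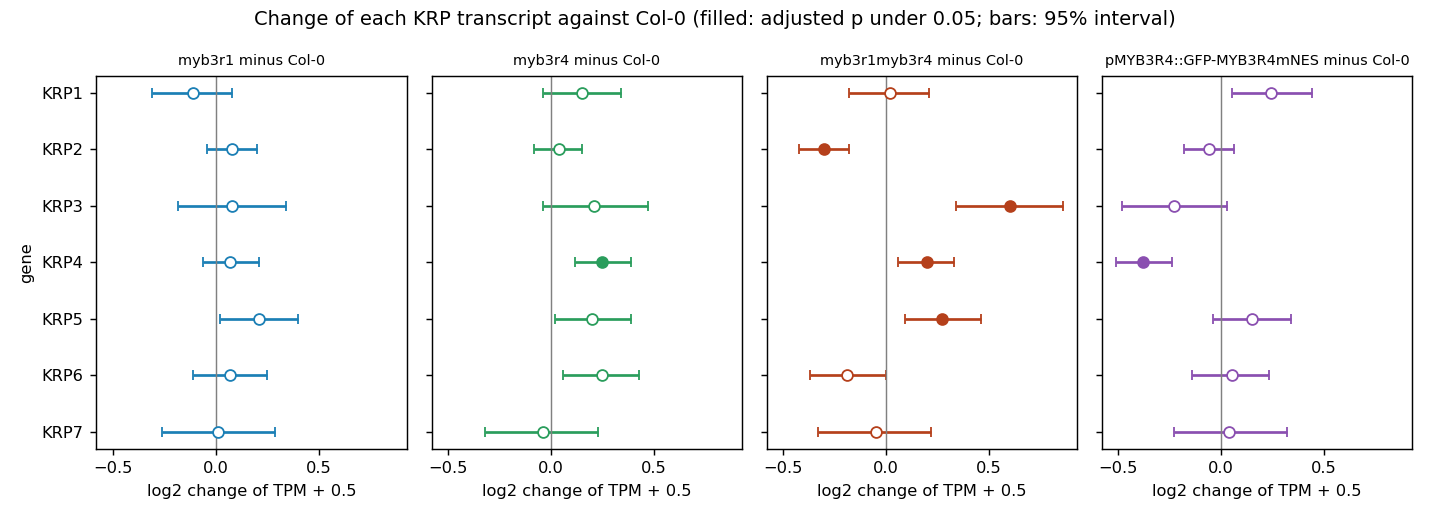
Difference of each KRP transcript from Col-0 (horizontal axis, log2 of TPM + 0.5) in the 4 other groups, with 95% intervals of the limma fit; filled points passed the adjusted p threshold of 0.05. Only KRP4 in myb3r4 and in the mNES line, and KRP2 to KRP5 in the double mutant, are filled, with KRP3 farthest to the right at 0.60 and KRP4 of the mNES line farthest to the left at -0.38.

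KRP4, the member that scales S-phase entry to cell size in this tissue, had opposite changes in the line labelled myb3r4 and in the mNES line. Its levels in Col-0 of 21.9, 23.1 and 24.7 TPM compared with 30.4, 25.5 and 27.6 TPM in the myb3r4 libraries and with 18.2, 17.3 and 17.8 TPM in the mNES line. In the double mutant they were 26.9, 25.9 and 27.3 TPM, and in myb3r1 25.3, 24.8 and 23.2 TPM. Every library of the mNES line lay below, and every library of myb3r4 and of the double mutant above, the 3 of Col-0, whereas myb3r1 overlapped with Col-0. The fall in the mNES line was 23.5% of the mean (log2 change -0.38, SE 0.0619, 95% interval -0.51 to -0.24, limma adjusted p = 0.0013), and it passed in all 23 alternative settings run, with adjusted p from 0.000703 to 0.0121. The rise in myb3r4 was 19.9% (0.25, SE 0.0619, 0.12 to 0.39, adjusted p = 0.0254) and that in the double mutant 14.9% (0.20, SE 0.0619, 0.06 to 0.33, adjusted p = 0.0208). Set directly against myb3r4, the mNES line was lower by 0.63 (SE 0.0619, -0.76 to -0.50, adjusted p = 1.11e-05), a ratio of 0.638, and 2 of 7 members, both lower, were called in that comparison beside 29.5% of all genes (11.6% higher and 17.9% lower, or 2522 and 3882 genes, which became 3334 and 2867 with median-of-ratios scaling). The double mutant and myb3r4 differed by -0.06 in KRP4 (95% interval -0.19 to 0.08, adjusted p = 0.511).

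The calls of both KRP4 rises, more than their size, depended on single libraries. The call in myb3r4 ended without Col-0 replicate 1 (adjusted p = 0.0991) or 2 (0.0764), without myb3r4 replicate 1 (0.0957) or 3 (0.0515), and with only the groups compared in the fit (0.107), within a range of 0.0133 to 0.107 over the 23 settings, while the change in these 5 settings was 0.19 to 0.26. That in the double mutant ended without Col-0 replicate 1 (0.0848) or 2 (0.055), without double mutant replicate 1 (0.054) or 3 (0.0675), and with median-of-ratios scaling (0.0787), within a range of 0.00985 to 0.0848, while the change in these 5 was 0.15 to 0.19. The overlapping antisense gene AT2G32720 had means of 179, 214, 203, 214 and 178 TPM in Col-0, myb3r1, myb3r4, the double mutant and the mNES line. Its mean in the mNES line, where KRP4 fell, was near the Col-0 mean. AT2G32720 was above the Col-0 mean in the lines where KRP4 rose. It was also above that mean in myb3r1, where KRP4 had a change of 0.07 (limma adjusted p = 0.567). In the mNES libraries AT2G32720 stood at 162, 168 and 204 TPM, against 172 to 183 TPM in Col-0. Its part in the rises and in the fall of KRP4 was not tested.

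KRP3, whose gene is also known as ICK6, had the largest change of the family against Col-0, a rise in the double mutant. Its levels were 14.4, 15 and 19.4 TPM in Col-0 and 23.7, 22.6 and 28.0 TPM in the double mutant. In myb3r1 they were 17.5, 18.0 and 15.7 TPM, in myb3r4 19.5, 18.6 and 18.2 TPM, and in the mNES line 12.2, 13.0 and 16.2 TPM. All 3 libraries of the double mutant lay above the 12 others, and Col-0 overlapped with each of the other 3 groups. The mean rose 1.52-fold against Col-0 (0.60, SE 0.119, 95% interval 0.34 to 0.86, limma adjusted p = 0.00133), a call kept in all 23 settings. Against the single mutants the double mutant was higher by 0.52 (SE 0.119, adjusted p = 0.00512) over myb3r1, where 3 of 7 members and 30.1% of all genes (17.2% higher, 12.9% lower) were called, and by 0.39 (SE 0.119, adjusted p = 0.0229) over myb3r4, where 3 of 7 and 34.7% (20.1% higher, 14.6% lower) were called. In both, KRP3 was higher and KRP2 and KRP6 were lower. With median-of-ratios scaling the split of all genes went from 3743 higher and 2807 lower to 2711 and 3499 against myb3r1, and from 4365 and 3179 to 3113 and 3946 against myb3r4. Its change in the mNES line was -0.23 against Col-0 (95% interval -0.48 to 0.03, adjusted p = 0.214), but against myb3r4 it fell by 26.5% (-0.44, SE 0.119, adjusted p = 0.0137). The call against myb3r4 was lost in the double mutant without myb3r4 replicate 2 (adjusted p = 0.0559) or 3 (0.0686) or without double mutant replicate 3 (0.102), in a range of 0.0104 to 0.102, with changes of 0.38, 0.37 and 0.30 in these 3 settings. That of the mNES line was lost without its replicate 1 (0.0602), in a range of 0.00428 to 0.0602, with a change of -0.36.

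Anther markers were higher in the double mutant, where KRP3 was highest, and lower in the mNES line. Of the 9 tapetum and anther markers, 8 rose and 0 fell in the double mutant against Col-0, beside 24.5% and 17.1% of all genes. Their median was 0.74, and among them was the tapetum gene A9 at 0.94. In the mNES line 0 rose and 7 fell, beside 7.60% and 9.39% of all genes, with a median of -0.67. Sums of these markers weigh A9 most, at 144 to 642 TPM in the 15 libraries, while no other of the 9 exceeded 194 TPM. The marker sums were 1030, 986 and 1160 TPM in the double mutant replicates, 277, 459 and 446 TPM in the mNES line and 658, 542 and 557 TPM in Col-0. In the single mutants the order was the other way, with sums of 615 to 779 TPM in myb3r1, where KRP3 stood at 15.7 to 18.0 TPM, and of 508 to 583 TPM in myb3r4, where it stood at 18.2 to 19.5 TPM. Meiocyte markers summed to 28.0 to 30.0 TPM in Col-0 and 40.1 to 40.8 TPM in the double mutant, where 4 of 6 rose. Within Col-0 the library with the highest KRP3 level, replicate 3, did not have the highest anther sum. Within myb3r1 the library with the highest KRP3 level had the lowest sum. Within the double mutant and within myb3r4 the library with the highest KRP3 level had the highest sum. In the mNES line the lowest KRP3 level went with the lowest sum, but the highest level did not go with the highest sum. The part of anther tissue in the KRP3 result was not tested.

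**Figure D3:**
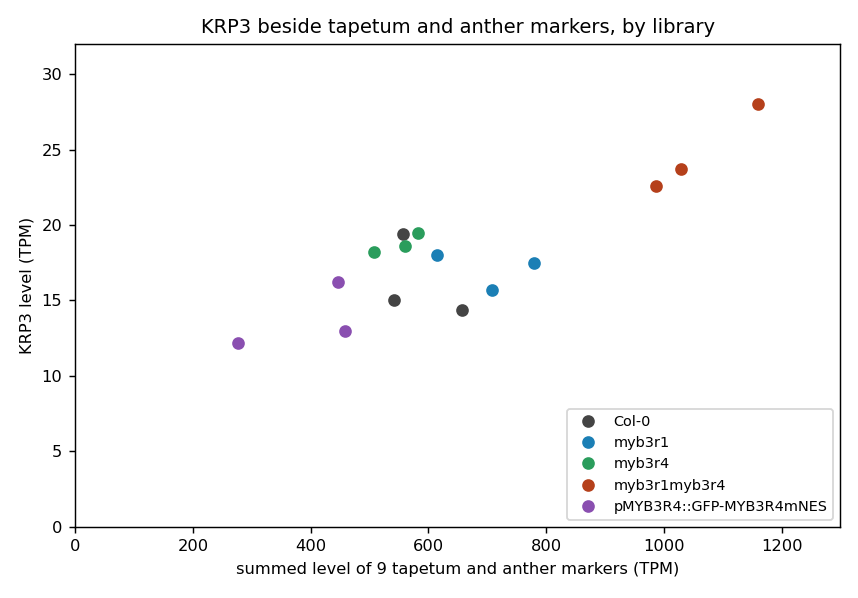
Level of KRP3 (TPM, vertical axis) against the summed level of 9 tapetum and anther markers (TPM, horizontal axis) in each of the 15 libraries, coloured by group. The 3 double mutant libraries lie apart at the upper right (22.6 to 28.0 TPM of KRP3 and 986 to 1160 TPM of markers), and the mNES libraries at the lower left (12.2 to 16.2 and 277 to 459 TPM).

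KRP2, the most abundant member and a known brake on lateral root initiation, was lower in the double mutant and near its Col-0 level in the other lines. It stood at 49.4, 49.2 and 47.3 TPM in the double mutant. The other groups had 64.2, 62.3 and 63.9 TPM (myb3r1), 57.9, 63.3 and 63.6 TPM (myb3r4) and 62.2, 56.9 and 53.6 TPM (mNES line), against the 57.4 to 63.3 TPM of Col-0. The double mutant libraries lay below all 12 others, and the other 3 groups overlapped with Col-0. The fall against Col-0 was 19.0% (-0.30, SE 0.054, 95% interval -0.42 to -0.18, limma adjusted p = 0.000644). It fell by 23.4% against myb3r1 (-0.38, SE 0.054, adjusted p = 0.000216) and by 21.1% against myb3r4 (-0.34, SE 0.054, adjusted p = 0.000502), and these 3 calls held in all 23 settings. In myb3r4 alone the change was 0.04 (95% interval -0.08 to 0.15, adjusted p = 0.735), and in myb3r1 alone 0.08 (-0.04 to 0.20, adjusted p = 0.443). The interaction contrast, which takes the difference of myb3r4 from Col-0 away from the difference of the double mutant from myb3r1, was -0.42 for KRP2 (SE 0.0763, 95% interval -0.58 to -0.25, adjusted p = 0.0037). It was called, with a negative sign, for 2 of the 7 members, and for 12.3% of all genes (6.31% positive and 5.95% negative, or 1371 and 1294 genes, which became 1122 and 1655 with median-of-ratios scaling). Of 6 green tissue markers, 6 fell in the double mutant, 4 in myb3r1, 5 in myb3r4 and 4 in the mNES line against Col-0. Of all genes, 17.1%, 3.10%, 3.04% and 9.39% fell in these lines. In the mNES line KRP2 had a change of -0.06 (limma adjusted p = 0.483). The part of these markers in the KRP2 result was not tested.

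KRP6, an inhibitor whose removal by FBL17 and by RHF1A and RHF2A lets male germ cells divide, was the other member of that contrast. Its levels in Col-0 were 17.0, 18.6 and 16.8 TPM, in myb3r1 18.5, 19.3 and 17.3 TPM, in myb3r4 22.7, 18.6 and 21.4 TPM and in the double mutant 14.3, 16.4 and 15.3 TPM. The double mutant lay below Col-0, myb3r1 and myb3r4 with no overlap, and myb3r4 reached from the highest Col-0 value upward. KRP6 fell by 26.6% from myb3r4 to the double mutant (-0.43, SE 0.0854, limma adjusted p = 0.0019) and by 16.7% from myb3r1 to the double mutant (-0.26, SE 0.0854, adjusted p = 0.0372). Neither its change of 0.25 in myb3r4 (95% interval 0.06 to 0.43, adjusted p = 0.0984) nor that of -0.19 in the double mutant (adjusted p = 0.0985) passed against Col-0. The interaction contrast was -0.50 (SE 0.121, 95% interval -0.76 to -0.24, adjusted p = 0.0167) and passed in all 23 settings, as did the difference from myb3r4. The call against myb3r1 was lost without myb3r1 replicate 1 (adjusted p = 0.0826) or 2 (0.125), without double mutant replicate 1 (0.129) or 3 (0.0856), with no filter on low values (0.0519) and with the replicate number as a block (0.0549), in a range of 0.0237 to 0.129, with changes of -0.26 to -0.21 in these 6 settings. KRP6 of the mNES line stood at 16.2, 18.2 and 20.0 TPM, across the Col-0 values. Male germ line and pollen markers also differed between these lines, with sums of 99.9 to 124 TPM in myb3r1, 83.4 to 154 TPM in myb3r4 and 21.1 to 46.6 TPM in the double mutant. GEX2 stood at 0 in all 3 myb3r1 libraries, but it did not exceed 0.437 TPM in any of the 15 libraries and was not tested. Most of each sum was VGD1, a pectin methylesterase of pollen, with means of 174 TPM in Col-0, 101 TPM in myb3r1, 108 TPM in myb3r4 and 30.4 TPM in the double mutant. Of the 7 markers tested, 1 fell in myb3r1 against Col-0, beside 3.10% of all genes, and 4 fell in the double mutant, beside 17.1%. None was called in myb3r4 by limma, where 3.04% of all genes fell and 3 of the 7 markers had an unadjusted p under 0.05. Their part in the KRP6 result was not tested.

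**Figure D4:**
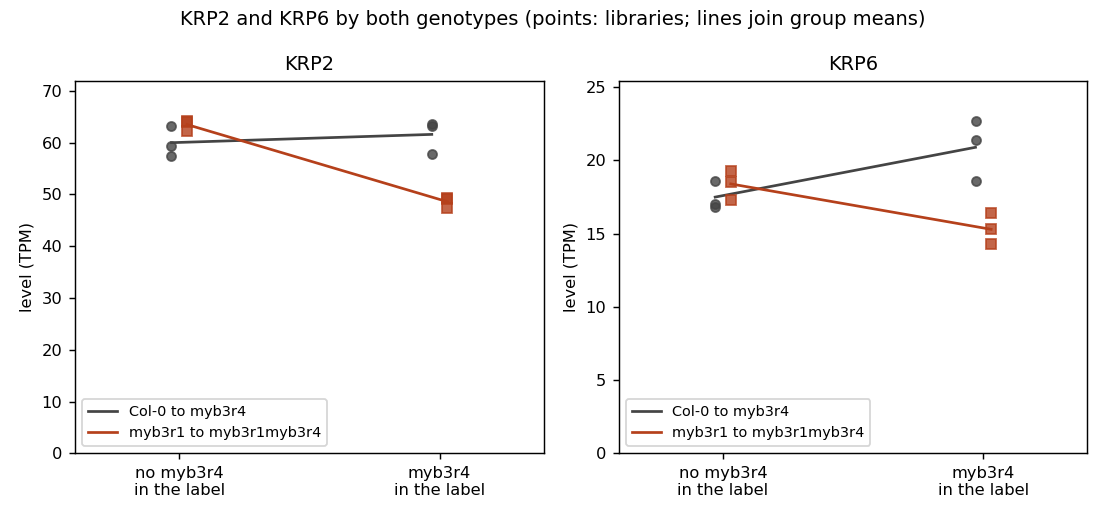
Levels of KRP2 (left) and KRP6 (right) in TPM (vertical axes from 0) in groups without and with myb3r4 in the label; circles and the dark line are Col-0 and myb3r4, squares and the red line myb3r1 and the double mutant, points are libraries and lines join group means. The squares drop to 47.3 to 49.4 TPM for KRP2 and 14.3 to 16.4 TPM for KRP6 on the right, while the circles there lie at 57.9 to 63.6 and 18.6 to 22.7 TPM.

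KRP5, known for roles in root cell elongation and endoreduplication, was higher in the double mutant by a small step. It stood at 12.0, 11.2 and 12.8 TPM in Col-0 and at 13.7, 15.3 and 14.7 TPM in the double mutant. The groups did not overlap, and the rise of 21.6% passed (0.27, SE 0.0866, 95% interval 0.09 to 0.46, limma adjusted p = 0.0224). The call was lost without Col-0 replicate 2 (adjusted p = 0.0906), without double mutant replicate 2 (0.0741) or 3 (0.0597) and with median-of-ratios scaling (0.06), in a range of 0.00542 to 0.0906, with changes of 0.22 to 0.27 in these 4 settings. The levels of myb3r1 (13.3, 14.6 and 13.8 TPM) and of myb3r4 (13.9, 14.2 and 13.5 TPM) also lay above those of Col-0, with changes of 0.21 (adjusted p = 0.183) and 0.20 (adjusted p = 0.175) that did not pass. The mNES line, at 11.6, 15.6 and 13.0 TPM, overlapped with Col-0.

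KRP1 (ICK1), which was the first plant CDK inhibitor described and binds CDKA;1 and CYCD3;1, passed in the F test but in none of the 8 contrasts. Its highest levels were in the mNES line, at 9.41, 10.3 and 9.4 TPM against 7.73 to 8.61 TPM in Col-0. These groups did not overlap, but the change of 0.24 (SE 0.0894, 95% interval 0.05 to 0.44) had an adjusted p of 0.0792 in limma, and 0.0492 with median-of-ratios scaling. KRP1 spanned 6.87 to 7.79 TPM in myb3r1, 8.13 to 10.3 TPM in myb3r4 and 7.68 to 9.10 TPM in the double mutant. KRP7 (ICK5), which with KRP4 and KRP6 is known to limit the number of female germ cell precursors, showed no difference that could be told from the spread. Its libraries lay at 16.2, 12.0 and 10.9 TPM in Col-0, a range that contained all libraries of the other groups except 1 double mutant value of 10.8 TPM. Its change was between -0.05 and 0.04 in the 4 comparisons with Col-0, with 95% intervals that reached from -0.33 to 0.32.

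In the double mutant the make-up of the KRP pool differed from that of Col-0, while its total as deposited lay within the Col-0 range. The 7 transcripts together summed to 149 to 152 TPM in Col-0 and 150 to 151 TPM in the double mutant. The sums were 155 to 159 TPM in myb3r1, 161 to 167 TPM in myb3r4 and 142 to 145 TPM in the mNES line. With median-of-ratios scaling the double mutant libraries were divided by 1.033 to 1.038 and those of Col-0 by 0.9931 to 1.005. That scaling lowers the double mutant sums beside those of Col-0 and leaves the shares unchanged. KRP2 made up 38.3% to 41.7% of the sum in Col-0 and 31.3% to 33.0% in the double mutant, where KRP3 made up 15% to 18.5% against 9.68% to 12.9%. The share of KRP4 was 14.7% to 16.5% in Col-0 and 12.0% to 12.8% in the mNES line. The 10 D-type cyclins, the partners that KRPs hold inactive, summed to 298 to 311 TPM in Col-0, 362 to 380 TPM in the double mutant and 273 to 282 TPM in the mNES line. The cyclin sums were 320 to 346 TPM in myb3r1 and 290 to 307 TPM in myb3r4. The ratio of the KRP sum to the separate cyclin sum was 47.8% to 50.3% in Col-0, 46.0% to 48.6% in myb3r1, 53.7% to 57.7% in myb3r4, 39.8% to 41.8% in the double mutant and 50.9% to 53.2% in the mNES line. These sums are of transcripts, were not tested and say nothing of protein.

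**Figure D5:**
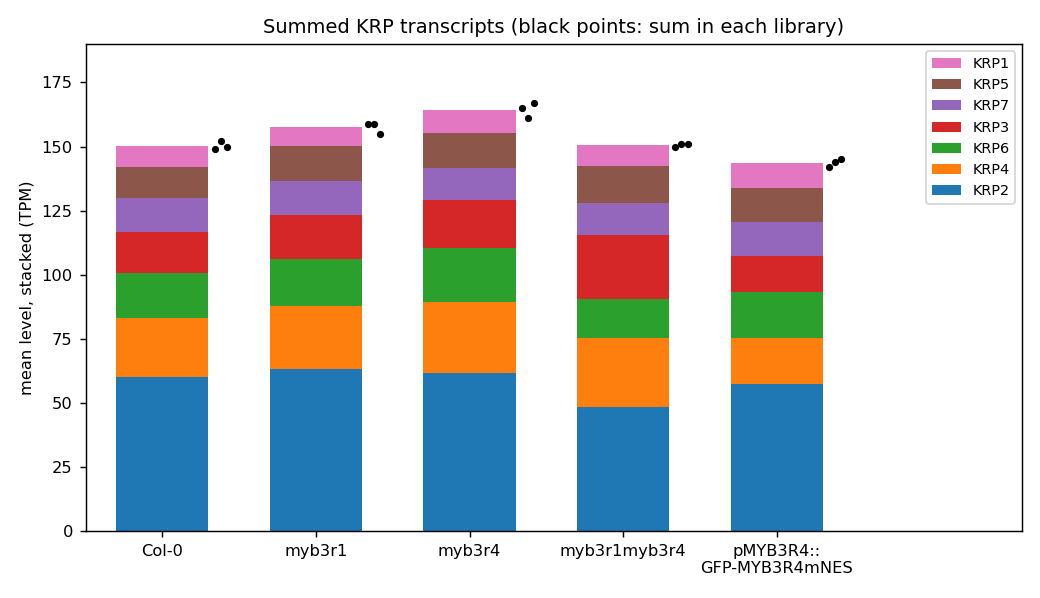
Mean level of each KRP transcript (TPM) stacked by group, with the sum in each library as a black point. With levels as deposited, the stacks of Col-0 (149 to 152 TPM) and the double mutant (150 to 151 TPM) are of like height. The double mutant has a smaller KRP2 and a larger KRP3 layer.

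Of the kinase and cyclins that KRPs inhibit, 6 of 11 rose in the double mutant, 1 fell and 4 did not pass. Their median was 0.23, beside 0.05 for all genes, of which 24.5% were higher and 17.1% lower. In myb3r1, myb3r4 and the mNES line, 3.16%, 4.55% and 7.60% of all genes were higher, and 3.10%, 3.04% and 9.39% lower. Counts of this and the next lists use levels as deposited, and scaling shifted the all-gene split as given above. CYCD3;3 (AT3G50070) and CYCD4;2 (AT5G10440) were each at 0.55 in the double mutant (limma adjusted p = 1.21e-05 and 0.00133). CYCD7;1 (AT5G02110), known from guard cell precursors, was at -2.36 (adjusted p = 5.52e-06), down from 3.19 to 0.215 TPM. Of these 11, 1 rose and 4 fell in the mNES line. CYCD7;1 was at 1.04 there (adjusted p = 0.00712), CYCD3;1 (AT4G34160) at -0.28 (adjusted p = 0.00125) and CYCD3;3 at -0.24 (adjusted p = 0.0144). In myb3r1 2 rose and 1 fell, and in myb3r4 2 rose and 1 fell, the latter with CDKA;1 (AT3G48750) at 0.16 (adjusted p = 0.0397). CDKA;1 did not pass in the double mutant (0.11, adjusted p = 0.0568).

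Of 7 CDK-activating kinases and CKS proteins, which activate CDKs or dock their substrates, 4 rose and 0 fell in the double mutant (median 0.20), with CKS2 (AT2G27970) at 0.50 (limma adjusted p = 8.19e-05), and in the mNES line 0 rose and 2 fell, with CKS2 at -0.24 (adjusted p = 0.0262). In the myb3r1 libraries 1 of 7 rose, CDKD;1 (AT1G73690) at 0.39 (adjusted p = 0.0114), and in myb3r4 none of 7 was called in limma, with 2 at an unadjusted p under 0.05. Of 10 genes for the turnover or modification of KRP proteins, 5 rose and 0 fell in the double mutant (median 0.11). Of all genes, 24.5% were higher and 17.1% lower there. The rises were led by RHF1A (AT4G14220), the RING ligase, at 0.39 (limma adjusted p = 0.000469), and the other rises were at 0.10 to 0.12. FBL17 (AT3G54650) was at 0.12 in the double mutant (adjusted p = 0.0273) and at 0.16 in myb3r4 (adjusted p = 0.0264), where it was the 1 gene of the list called. SKP2B (AT1G77000) was the 1 gene of the list called in myb3r1, at -0.30 (adjusted p = 0.0144), and in the mNES line, at -0.39 (adjusted p = 0.00124).

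Downstream of the kinase, 5 of 9 RBR1, E2F and DP genes rose and 0 fell in the double mutant (median 0.25). Of all genes, 24.5% were higher and 17.1% lower there. These rises were led by DEL3 (AT3G01330), an atypical E2F, at 0.56 (limma adjusted p = 0.000121). In the mNES line 0 of 9 rose and 2 fell, E2FB (AT5G22220) at -0.29 (adjusted p = 0.0271) and DPB (AT5G03415), a partner of E2F proteins, at -0.26 (adjusted p = 0.00338). Neither single mutant had a call in this list, with 0 and 1 of 9 at an unadjusted p under 0.05 in myb3r1 and myb3r4. S-phase genes had 12 of 15 higher and 0 lower in the double mutant (median 0.37), led by MCM6 (AT5G44635), a subunit of the replicative helicase, at 0.48 (adjusted p = 1.02e-05), and by PCNA2 (AT2G29570), a sliding clamp, at 0.47 (adjusted p = 4.25e-06). Of the S-phase genes, 1 of 15 rose in the mNES line, ORC6 (AT1G26840) of the origin recognition complex, at 0.31 (adjusted p = 0.0181), and 0 fell. In myb3r1 2 of 15 rose, and in myb3r4 none of 15 was called in limma, with 6 at an unadjusted p under 0.05.

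The SIM and SMR genes, the other CDK inhibitor family of plants, had more members lower than higher in the double mutant. There 2 of 14 were higher and 6 lower (median -0.25), against 3 and 1 of 7 KRPs and 24.5% and 17.1% of all genes. The difference between the families was not tested. Among the called members the largest changes were those of AT5G59360 at -1.01 (limma adjusted p = 0.000911), AT2G37610 at -0.97 (adjusted p = 0.000256) and AT1G08180 at -0.88 (adjusted p = 4.29e-05). In myb3r1 1 of 14 rose, AT5G40460 at 0.92 (adjusted p = 1.96e-05), and in myb3r4 1 fell, SIM (AT5G04470), which promotes endoreduplication in trichomes, at -0.33 (adjusted p = 0.029). The mNES line had 1 higher and 1 lower.

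Genes with a pattern most like that of a KRP were sought over the 15 libraries, for the 5 members that passed the F test, by the Pearson correlation of log2(TPM + 0.5). The libraries share the 5 groups and no p is given. KRP3 was followed most closely by UVI4 (AT2G42260), an inhibitor of the anaphase-promoting complex, with r = 0.969, by SUMO2 (AT5G55160), r = 0.958, and by CTF18 (AT1G04730), r = 0.951. UVI4 stood at 8.90 TPM in Col-0, 12.5 TPM in the double mutant and 7.33 TPM in the mNES line. KRP4 was most like ATCES1 (AT4G22330, r = 0.948), a ceramidase gene, AT3G57930 (r = 0.945) and AT5G12440 (r = 0.942). For KRP2 the nearest were DELTA-TIP (AT3G16240, r = 0.947), a water channel of the vacuole at 758 TPM in Col-0 and 546 TPM in the double mutant, AT1G64150 (r = 0.946) and AT2G42320 (r = 0.937). KRP1 had RGP2 (AT5G15650, r = 0.906), FAF4 (AT3G06020, r = 0.851) and MYB6 (AT4G09460, r = 0.834). KRP6 had AT2G40530 (r = 0.906), the chloroplast gene ATCG01020 (r = 0.864) and SULA (AT2G21280, r = 0.863). Ranked by Spearman's rho, 2 of the 3 genes stayed among the nearest 3 for KRP1, KRP3 and KRP6, and 0 of 3 for KRP2 and KRP4. Between members, r was highest for KRP3 and KRP4 at 0.76 and lowest for KRP2 and KRP3 at -0.66.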

How the data were processed

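The authors deposited 1 table of TPM per gene for 15 libraries; the submitters' processing notes list Salmon, FastQC and TAIR10 with no versions, and how transcripts were summed to genes is not given in the sources used here. TPM keeps no read totals, so depth and counting error are unknown. Libraries were grouped by the genotype in their titles.

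limma 3.58.1 (R 4.3.3) was fitted to log2(TPM + 0.5) for 21737 genes with at least 1 TPM in at least 3 libraries, with 5 group means, a variance trend, 10 residual degrees of freedom (prior 3.18), two-sided tests and Benjamini-Hochberg adjustment over all genes at 0.05. The 0.5 added understates changes of low genes. The fit was tested on simulated data. Alternatives changed the pseudocount (0.1 or 1), filter, scaling, variance trend, replicate block or groups fitted, or left out 1 library. Positions and sequences came from RefSeq TAIR10.1, to which 32570 of 33326 identifiers matched.

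The members and lists were chosen with earlier results of these data known. Named besides the KRPs and the MYB3R pair are up to 3 called genes of each list with the largest change in a comparison, and the 3 genes most like each KRP that passed the F test. STM, WUS, CLV3, GEX2 and AT2G32720 were named after their values were seen.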

Additional observations from a re-analysis of the deposited data

Results flagged for a closer look

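For 2 KRP genes the difference that goes with myb3r4 in the label was not the same in the libraries with and without myb3r1, by a test of that difference in limma. The same test was passed by 12.3% of all genes (6.31% positive and 5.95% negative), beside 2 of the 7 KRP genes. KRP2 had a value of -0.42 on the log2 scale (adjusted p = 0.0037), as its level was 61.6 ± 3.23 TPM in myb3r4 and 48.6 ± 1.14 TPM in the double mutant (SD, n = 3). KRP6 had a value of -0.50 (limma adjusted p = 0.0167). Its level was 17.5 ± 0.932 TPM in Col-0 and 20.9 ± 2.07 TPM in myb3r4, and 18.4 ± 0.994 TPM in myb3r1 and 15.3 ± 1.04 TPM in the double mutant. Both remained called in the 8 other settings and in the 15 fits with a library left out. The groups have 3 libraries each, too few to look for single outlying samples.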

How the results depend on the processing

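Of 16 calls of KRP genes, 10 held in all 23 settings. The count of KRP genes called in myb3r4 against Col-0 was 1 and became 0 with only the groups compared in the fit, and in the double mutant against Col-0 it was 4 and became 2 with median-of-ratios scaling. In the mNES line against Col-0 it was 1 and became 2 with that scaling. Of all genes, 858 of 20769, 8384 of 21733 and 3681 of 21733 were called in these settings for myb3r4, the double mutant and the mNES line. With 1 library left out the counts ranged from 0 to 1 in myb3r4, 2 to 4 in the double mutant, 1 to 1 in the mNES line and 0 to 0 in myb3r1, from 2 to 3 for the double mutant against each single mutant, from 2 to 3 for the mNES line against myb3r4 and from 2 to 2 for the interaction. In these fits the calls over all genes were 831 to 1813 in myb3r4, 7185 to 9226 in the double mutant, 2495 to 3707 in the mNES line and 663 to 1511 in myb3r1. They were 4874 to 6764 and 5485 to 7722 for the double mutant against myb3r1 and myb3r4. For the mNES line against myb3r4 they were 4861 to 6383, and for the interaction 1865 to 2891. The count of 3 for the mNES line against myb3r4 came with KRP6 (-0.28, adjusted p = 0.0348, and -0.27, adjusted p = 0.0383) without myb3r4 replicate 2 and without mNES replicate 3. Without mNES replicate 1 KRP2 was called (-0.15, adjusted p = 0.0446) and KRP3 was not (0.0602).

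KRP1 in the double mutant turned from 0.02 to -0.03 with median-of-ratios and -0.01 with upper-quartile scaling. With 1 library left out, 13 changes that were not called turned their sign. For KRP7 they ranged from -0.10 to 0.18 in myb3r1, -0.16 to 0.12 in myb3r4, -0.17 to 0.11 in the double mutant, -0.07 to 0.20 in the mNES line, -0.15 to 0.03 and -0.10 to 0.09 for the double mutant against myb3r1 and myb3r4, -0.01 to 0.15 for the mNES line against myb3r4 and -0.18 to 0.09 for the interaction. The others were KRP1 (-0.05 to 0.06 in the double mutant, -0.09 to 0.07 for the interaction), KRP6 in the mNES line (-0.02 to 0.12), KRP4 for the double mutant against myb3r4 (-0.12 to 0.01) and KRP5 for the mNES line against myb3r4 (-0.16 to 0.04). The cause was not tested.

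Over all genes, calls in myb3r1 numbered 1360 and were 663 without Col-0 replicate 2, 806 without its replicate 3, and 796, 880 and 762 when myb3r1 replicate 1, 2 or 3 was left out. Calls in myb3r4 numbered 1650 and were 858 with only the groups compared, 904 without Col-0 replicate 1, 905 without its replicate 2, and 863 and 831 when myb3r4 replicate 1 or 2 was left out. Those in the mNES line numbered 3695 and were 2290 with only the groups compared. With median-of-ratios scaling the mean level of KRP2 in the double mutant was 47.0 TPM and that of KRP4 25.8 TPM, and that of KRP4 in the mNES line 18.2 TPM.

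Same-numbered replicates did not deviate together (30 pairs, r from -0.125 to 0.088), so the numbers were not taken to pair samples. With the replicate block the counts of KRP genes called were 0, 1, 4 and 1 against Col-0 in myb3r1, myb3r4, the double mutant and the mNES line. They were 2 and 3 for the double mutant against myb3r1 and myb3r4, 2 for the mNES line against myb3r4 and 2 for the interaction. Of 21737 genes tested with that block, 1158, 1396, 8830 and 3444 were called against Col-0 in the same order of lines. In the other comparisons 6251, 7245, 6138 and 2430 were called, in the order above. Depth is unknown and each group has 3 libraries, which limits small changes of the low members.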
